A study of Mus musculus with 4 samples.

Results

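A group of 10 early cartilage and bone genes, called precursor genes below, was followed in RNA-Seq of the E11.5 nasal process (NP), the facial outgrowth that carries the forming nose. They are the transcription factors *Sox9*, *Sox6*, *Runx1*, *Runx2* and *Sp7*, the cartilage matrix genes *Acan*, *Matn1*, *Matn4* and *Hapln1*, and the phosphatase gene *Alpl*. They were chosen by name, because an active form of the BMP receptor ACVR1 is known to drive cartilage and bone at sites where neither belongs. Of the 10, 7 had a row among the 13577 genes listed in the table. *Acan*, *Matn1* and *Sp7* had no row under their symbol or Entrez number, and they were not analysed here.

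The 4 libraries analyzed, 2 titled control and 2 titled ca-*Acvr1* mutant, all came from NP tissues of E11.5 mouse embryos. Control embryos carry *P0-Cre* alone, and mutant embryos, ca-*Acvr1(A11)* for short, carry *P0-Cre* together with a transgene for constitutively active ACVR1 that Cre switches on, so that Cre is shared by both groups. *P0-Cre* is used to act in neural crest cells and their descendants, and epithelium, vessels and blood in the same tissue come from other lineages. The mice were of mixed background. No source used here says whether the replicates came from separate embryos or from pools, so the spread between these libraries may be technical. The limma intervals and p-values below rest mostly on a spread pooled over genes of like level (24.7 prior against 2 residual degrees of freedom). A fit with 1 library left out has a single library in 1 group, so its p-values and calls do not measure the spread there. The genotype entries of the libraries contradict their titles, since they place the transgene in the libraries titled control. The titles were followed, and every direction below would turn round if the genotype entries were right.

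Cartilage of the face begins as mesenchyme that condenses under SOX9, which then works with SOX5 and SOX6 to switch on collagen II, aggrecan, matrilins and link protein. In facial bones mesenchyme can become bone directly, with RUNX2 acting first, SP7 (osterix) after it, and alkaline phosphatase, the product of *Alpl*, preparing the matrix for mineral. BMP signals through receptors such as ACVR1 feed into both programs, and at this age the NP is largely undifferentiated neural crest mesenchyme covered by epithelium.

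The kit used primes at the poly(A) tail, so each transcript gives reads near its 3′ end, and a CPM value (reads on a gene relative to all reads of that library) compares genes per transcript, without a term for length. Library totals recovered from the values lay between 1956831 and 2408827 reads, and 1 read was worth between 0.415 and 0.511 CPM. Replicates correlated across genes at 0.976 (control) and 0.978 (mutant) on the log2(CPM + 1) scale. *Acvr1* itself stood at 21.5 and 23.1 CPM in the controls and at 24.1 and 12.6 CPM in mutant libraries (log2 fold change −0.33, limma adjusted p = 0.786), and without mutant replicate 2 the fold change was 0.11. Where the transgene's transcript ends is not given in the sources used here, and these 3′ reads are therefore no check of the titles.

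None of the 7 precursor genes with a row passed the test between the groups. limma on log2(CPM + 1), with Benjamini-Hochberg adjustment over 12462 genes and a threshold of 0.05, called 0 of the 7 higher and 0 lower. Over all genes tested it called 0.305% higher and 0.594% lower, or 0.899% in either direction, so that a count of 0 among 7 genes is also what the background share gives. At an unadjusted p under 0.05, 2 of the 7 (*Sox9* and *Hapln1*, both lower in mutant libraries) were reached, beside 9.55% of all genes (5.42% higher and 4.12% lower). The groups did not overlap for 3 of the 7 (*Sox9*, *Hapln1* and *Runx2*), beside 38.8% of all genes. On recovered reads the edgeR quasi-likelihood test, DESeq2 and limma-voom each tested 5 of the 7 and called 0, beside 1.31%, 0.356% and 1.24% of all genes. An exact permutation test of 2 libraries against 2 cannot give a p below 0.33.

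**Figure D1:**
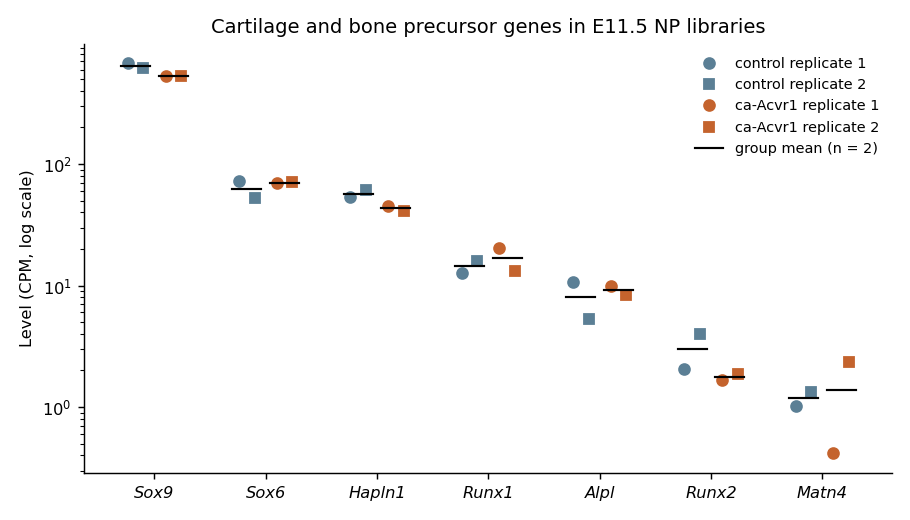
Level of each of the 7 precursor genes with a row in every library, in CPM on a log axis, with genes ordered by their mean level. Circles and squares are replicates 1 and 2, blue is control, orange is ca-Acvr1(A11), and black bars are group means (n = 2). The genes span from a mean of 587 CPM for Sox9 to 1.28 CPM for Matn4.

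The 7 genes lay far apart in level. *Sox9* averaged 587 CPM over the 4 libraries, a higher mean than 98.5% of the genes listed. *Sox6* averaged 66.6 CPM and *Hapln1* 50.1 CPM, and these neighbours overlapped, with *Sox6* the higher in 3 of 4 libraries. *Runx1* (15.6 CPM) and *Alpl* (8.61 CPM) followed, each above the next gene in all 4 libraries. *Runx2* (2.39 CPM) and *Matn4* (1.28 CPM) closed the order, and their ranges overlapped, with *Runx2* the higher in 3 of 4 libraries. The genes sit apart in the genome (GRCm38), with *Sox6* at chr7:115470872-116038796, *Hapln1* at chr13:89539796-89611652, *Runx1* at chr16:92601466-92826149, *Alpl* at chr4:137741733-137796384, *Runx2* at chr17:44495987-44814797 and *Matn4* at chr2:164389393-164405160, all on the minus strand except *Hapln1*. In the annotation no exon of another gene overlaps the last exon of the protein-coding transcripts of any of the 7, on either strand. The factor that starts cartilage was abundant, and the factor that starts bone lay close to the limit of counting.

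*Sox9*, the factor that commits mesenchyme to cartilage and is also made by neural crest cells and neural progenitors, was read at 673 and 622 CPM in the controls and at 526 and 530 CPM in mutant libraries. Both mutant libraries lay below both control libraries. The control mean was 647 ± 35.8 CPM and the mutant mean 528 ± 2.93 CPM (SD, n = 2 each). The log2 fold change was −0.29 with a standard error of 0.13 and a 95% confidence interval from −0.57 to −0.02. The unadjusted p was 0.0367 and the adjusted p 0.476 (limma), so the difference did not pass. The interval runs from 0.675-fold to 0.987-fold, and a 1.5-fold excess of *Sox9* in mutant libraries lies outside it. With any 1 library left out the log2 fold change stayed between −0.35 and −0.24. *Sox9* is on chromosome 11 (chr11:112782224-112787760, plus strand, GRCm38), and the last of its exons, where these reads are expected from the priming, is at chr11:112784672-112787760.

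*Sox6*, a partner that helps SOX9 hold the cartilage program, was at 72.6 and 52.8 CPM in the controls and at 70.2 and 70.7 CPM in mutant libraries. Control replicate 2 was the low library, the other 3 lay between 70.2 and 72.6 CPM, and the groups overlapped. The log2 fold change was 0.18 with a standard error of 0.18 and an interval from −0.19 to 0.55 (limma adjusted p = 0.837), and without control replicate 2 it was −0.04. *Sox5*, the close relative of *Sox6*, named here after its values were seen, stood at 135 and 128 CPM in the controls and 135 and 127 CPM in mutant libraries (log2 fold change −0.01, interval −0.31 to 0.30). The values of *Sox8*, a relative of *Sox9* likewise named afterwards, were 13.3 and 8.43 CPM against 9.96 and 5.15 CPM, with overlapping groups (limma adjusted p = 0.726).

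*Hapln1*, which encodes the link protein that ties aggrecan to hyaluronan, was at 53.1 and 60.8 CPM in the controls and at 45.3 and 41.2 CPM in mutant libraries. The groups did not overlap, with the control libraries higher. The means were 57.0 ± 5.42 CPM and 43.2 ± 2.88 CPM (SD, n = 2 each), and the log2 fold change was −0.39 with a standard error of 0.19 and an interval from −0.77 to −0.01 (unadjusted p = 0.0452, limma adjusted p = 0.508). With any 1 library left out it stayed between −0.49 and −0.29. *Matn4*, a matrilin that links filaments of the matrix, had 2 and 3 reads in the controls and 1 and 5 reads in mutant libraries. At 1.02, 1.33, 0.415 and 2.34 CPM the mutant libraries held both the lowest and the highest value. Its log2 fold change of 0.00 (interval −1.13 to 1.13, limma adjusted p = 1.000) therefore leaves room for a change of over 2-fold either way, and its sign turned with the pseudocount and the scaling.

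*Runx1*, which acts in early cartilage and bone precursors and is best known as a master factor of blood formation, was at 12.8 and 16.0 CPM in the controls and at 20.3 and 13.1 CPM in mutant libraries. The highest value was that of mutant replicate 1, and the groups overlapped. The log2 fold change was 0.18 with a standard error of 0.29 and an interval from −0.41 to 0.77 (limma adjusted p = 0.913), and without mutant replicate 1 it was −0.12. *Runx2*, the factor that bone cannot form without, had 4 and 9 reads in the controls and 4 and 4 reads in mutant libraries, or 2.04, 4.0, 1.66 and 1.87 CPM. The groups did not overlap, but control replicate 1 and the mutant libraries had the same number of reads. The pooled level was 3.09 CPM in the controls (95% Poisson interval 1.64 to 5.28) and 1.76 CPM in mutant libraries (0.760 to 3.47), intervals that overlap and cover counting error alone. The log2 fold change was −0.50 with a standard error of 0.47 and an interval from −1.47 to 0.48 (limma adjusted p = 0.825).

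*Alpl*, whose product is an early enzyme of bone-forming cells, was at 10.7 and 5.33 CPM in the controls and at 9.96 and 8.42 CPM in mutant libraries. Control replicates held both the highest and the lowest value. The log2 fold change was 0.24 with a standard error of 0.36 and an interval from −0.49 to 0.97 (limma adjusted p = 0.908), and without control replicate 2 it was −0.21. *Sox9* and *Hapln1* kept one direction, lower in mutant libraries, under all 16 alternatives and omissions, and *Runx2* did so under the 13 that gave it a value. The groups do not overlap for these genes, so omitting a library or changing the pseudocount could not have turned the direction. Their constant direction therefore adds little to the lack of overlap. None of the 7 was called under any alternative that gave it a value.

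**Figure D2:**
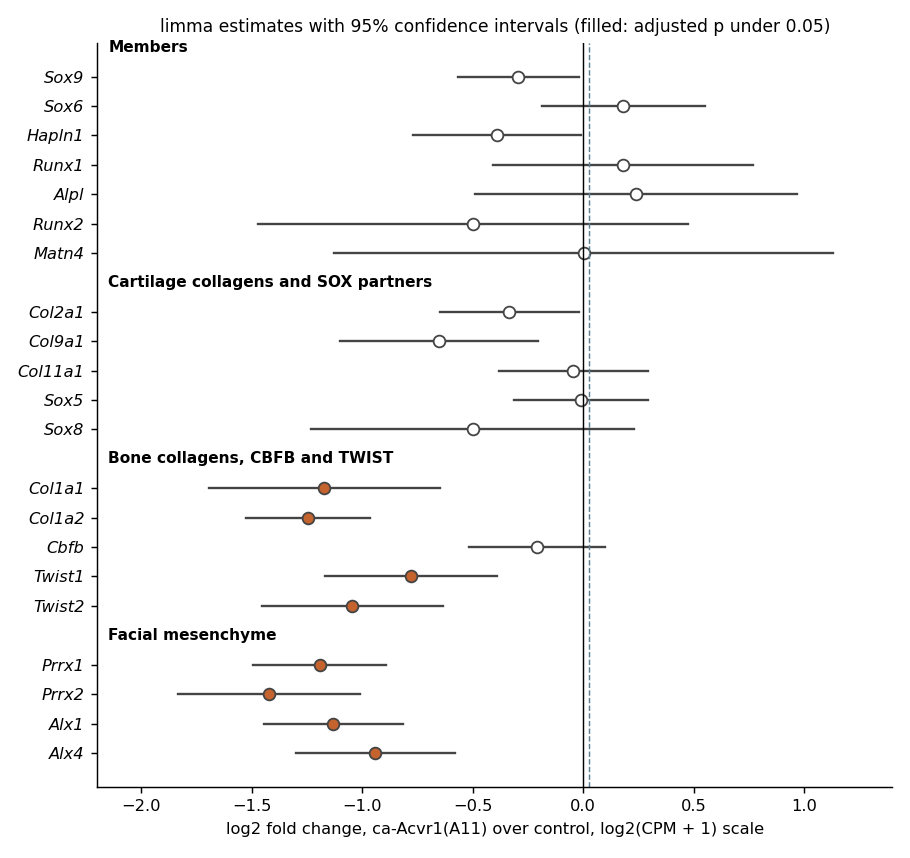
Log2 fold change of ca-Acvr1(A11) over control on the log2(CPM + 1) scale with its 95% confidence interval from limma, for the 7 precursor genes and for related cartilage, bone and mesenchyme genes. Filled points passed an adjusted p of 0.05, the solid line is 0, and the dashed line is the median of all genes tested (0.03). The 7 precursor genes are all open, and the type I collagen, TWIST and PRRX genes, Alx1 and Alx4 are all filled and below 0.

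Among other genes of the cartilage program, the only calls were lower in mutant libraries. Of 41 cartilage genes written down by function, 29 had a row and 27 were tested. This list and those below were chosen with earlier results of these data known. limma called 0 higher and 3 lower, beside 0.305% and 0.594% of all genes, and the median log2 fold change was −0.17 against 0.03 over all genes. At an unadjusted p under 0.05 there were 2 higher and 7 lower, beside 5.42% and 4.12% of all genes. edgeR and limma-voom each called 3 of this list lower, *Foxc1*, *Foxc2* and *Pth1r*, and DESeq2 called *Foxc1* alone. *Pth1r*, named after its values were seen, stood at 35.3 and 55.9 CPM against 16.2 and 29.9 CPM (log2 fold change −0.98, limma adjusted p = 0.069). *Barx1*, called by limma, had no value from edgeR or limma-voom. The 3 genes called by limma on log2(CPM + 1) are not matrix genes. They are *Foxc1* (208 and 222 CPM against 122 and 134 CPM, log2 fold change −0.75, limma adjusted p = 0.00608) and *Foxc2* (34.8 and 43.5 CPM against 17.0 and 23.4 CPM, −0.93, limma adjusted p = 0.0497), forkhead factors of mesenchyme, and *Barx1* (3.58 and 10.2 CPM against 1.25 and 0.468 CPM, −1.98, limma adjusted p = 0.0478), a homeobox factor of facial mesenchyme. *Foxc2* and *Barx1* lay at the threshold, and with a pseudocount of 0.5 their limma adjusted p-values were 0.0526 and 0.0611. *Foxc1* was no longer called without mutant replicate 1 (−0.68, limma adjusted p = 0.0864). The count was 5 when control replicate 1 was left out, and 1 when either control replicate 2 or mutant replicate 1 was.

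The collagens of cartilage, which SOX9 drives, did not pass. *Col2a1*, the main collagen of cartilage, stood at 134 and 120 CPM in the controls and at 106 and 95 CPM in mutant libraries (log2 fold change −0.33, interval −0.65 to −0.02, limma adjusted p = 0.483). *Col9a1*, which decorates its fibrils, stood at 34.8 and 48.4 CPM against 26.2 and 25.3 CPM (−0.65, limma adjusted p = 0.237). Without control replicate 1 its log2 fold change was −0.89. In both genes the control libraries were the higher ones, as they were for *Sox9* and *Hapln1*. The other chains of collagen IX overlapped between the groups, with *Col9a2* at 7.15 and 8.88 CPM against 7.47 and 6.55 CPM and *Col9a3* at 2.56 and 1.78 CPM against 2.91 and 2.34 CPM. *Col11a1*, a further fibril collagen that facial mesenchyme also makes, stood at 78.7 and 74.6 CPM against 72.6 and 75.8 CPM, with overlapping groups. The other matrilins with a row, named after their values were seen, were also near the limit of counting, with *Matn2* between 1.4 and 2.91 CPM and *Matn3* at 1.02 and 1.78 CPM in the controls and 2.49 and 6.08 CPM in mutant libraries (limma adjusted p = 0.472 for *Matn3*). Of genes of sulfate supply and of chondroitin sulfate synthesis, also named afterwards, *Chsy1* and *Csgalnact1* overlapped between the groups. They stood at 107 and 119 CPM against 117 and 120 CPM, and at 3.07 and 1.78 CPM against 1.25 and 2.34 CPM. *Chst11*, *Papss2* and *Slc26a2* were higher in both mutant libraries without a call. *Chst11*, a chondroitin sulfotransferase, stood at 10.2 and 10.7 CPM against 19.5 and 17.8 CPM (log2 fold change 0.78, limma adjusted p = 0.300), *Papss2*, which makes the sulfate donor, at 5.62 and 5.77 CPM against 9.13 and 8.42 CPM, and the sulfate transporter *Slc26a2* at 3.07 and 2.66 CPM against 5.4 and 4.68 CPM.

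Among 45 genes of the bone program, 36 had a row and 34 were tested. limma called 0 higher and 5 lower, beside 0.305% and 0.594% of all genes, with a median log2 fold change of 0.00. At an unadjusted p under 0.05 there were 5 higher and 8 lower, beside 5.42% and 4.12% of all genes. The higher ones were *Dlx6*, *Cdh2*, *Sparc*, *Runx3* and *Spp1*, the first 3 named after their values were seen. *Dlx6* stood at 1.53 and 0.888 CPM against 5.81 and 4.21 CPM (log2 fold change 1.45, limma adjusted p = 0.192). *Cdh2* stood at 101 and 86.6 CPM against 133 and 121 CPM, and *Sparc* at 256 and 223 CPM against 281 and 351 CPM. The called genes were both chains of type I collagen, both TWIST factors and the mesenchymal cadherin *Cdh11*. *Col1a2* fell from 540 and 617 CPM to 246 and 240 CPM (log2 fold change −1.25, standard error 0.14, limma adjusted p = 1.75e-06), and *Col1a1* from 29.6 and 35.1 CPM to 11.2 and 16.8 CPM (−1.17, limma adjusted p = 0.0171). Type I collagen is the main protein of bone and is also made by mesenchyme that never becomes bone. *Twist1*, which holds mesenchyme undifferentiated and restrains RUNX2, was at 113 and 205 CPM against 89.7 and 87.5 CPM (−0.78, limma adjusted p = 0.0412), and without control replicate 2, the high library, its log2 fold change was −0.35 with a limma adjusted p of 0.680. *Twist2* fell from 56.2 and 59.5 CPM to 24.5 and 30.9 CPM (−1.05, limma adjusted p = 0.00554) and *Cdh11* from 149 and 199 CPM to 106 and 87.5 CPM (−0.83, limma adjusted p = 0.00687). *Col1a2* was called under every alternative, and DESeq2 called *Col1a2* and *Cdh11* alone. Without control replicate 2 the limma adjusted p was 0.0819 for *Col1a1* and 0.0592 for *Cdh11*, without mutant replicate 1 it was 0.183 for *Col1a1* and 0.0661 for *Twist2*, and without mutant replicate 2 it was 0.0865 for *Cdh11*. The count of 5 became 2 and 3 in the first and the second of these omissions.

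The defining genes of differentiated bone were near the limit of counting in both groups. *Spp1* (osteopontin) was at 1.02 and 1.33 CPM in the controls and 2.91 and 3.74 CPM in mutant libraries (limma adjusted p = 0.515), and *Ibsp* (bone sialoprotein) at 3.07 and 1.78 CPM against 0.415 and 1.87 CPM (limma adjusted p = 0.726). *Bglap* (osteocalcin) had no row and was not analysed here. *Cbfb*, the partner that every RUNX factor needs to bind DNA, was at 129 and 142 CPM in the controls and 121 and 113 CPM in mutant libraries, far above the RUNX genes themselves (log2 fold change −0.21, limma adjusted p = 0.726). *Runx3*, better known from sensory neurons and leukocytes, stood at 0.511 and 1.33 CPM against 3.74 and 2.81 CPM (1.18, limma adjusted p = 0.424). *Cbfb* and *Runx3* were named after their values were seen.

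**Figure D3:**
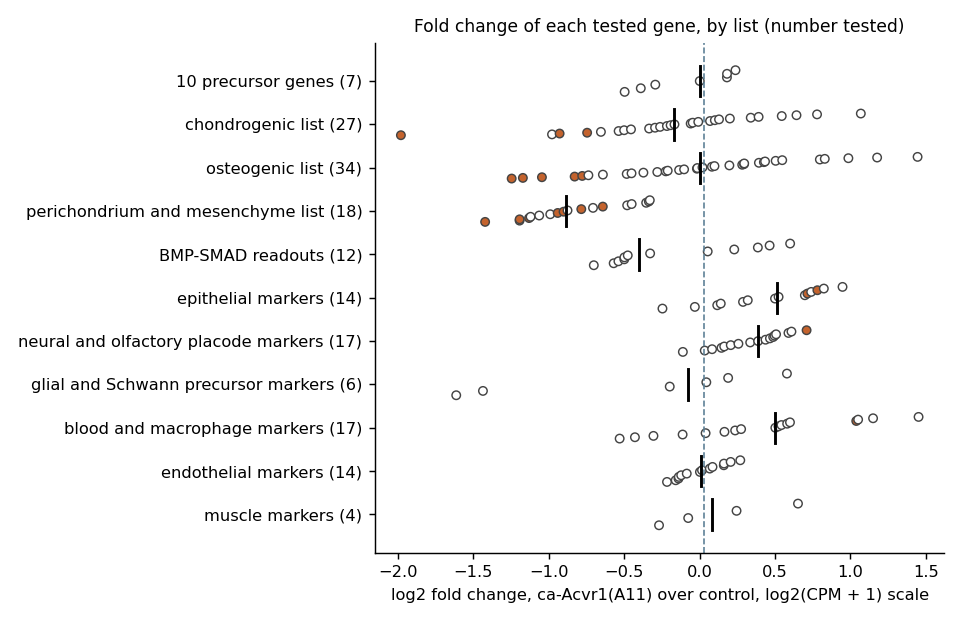
Log2 fold change of ca-Acvr1(A11) over control on the log2(CPM + 1) scale for every tested gene of the 10 precursor genes, of related lists and of cell type marker lists, with the number tested in brackets. Each point is a gene, filled where the limma adjusted p was under 0.05, black bars are list medians, and the dashed line is the median of all genes tested. The mesenchyme list lies wholly below 0 (median −0.89), and the precursor genes lie on both sides of 0 (median 0.00).

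The mesenchyme in which these precursors arise gave larger differences. Of a list of 20 genes of facial mesenchyme and perichondrium 18 were tested. limma called 7 lower and 0 higher, beside 0.594% and 0.305% of all genes, with a median log2 fold change of −0.89. The fitted fold change was below 0 for all 18, beside 45.8% of all genes. This list was chosen with earlier results of these data known, so its shares are descriptions and no independent evidence. The groups did not overlap for 15 of the 18, beside 38.8% of all genes. *Prrx1* (224 and 241 CPM against 94.7 and 108 CPM, log2 fold change −1.19, limma adjusted p = 1.5e-05) and *Prrx2* (−1.42) mark early limb and facial mesenchyme. *Alx1* (−1.13) and *Alx4* (−0.94) are factors of the frontonasal mesenchyme, and *Six2* (−0.90) and *Nr2f1* (−0.64) were also called. *Alx1* and *Alx4* were read at 42.8 CPM or more in every library. *Six2* lost its call without control replicate 2 (log2 fold change −0.66) and *Nr2f1* without mutant replicate 1 (−0.47). Set beside these, the log2 fold changes of *Sox9* (−0.29) and *Sox6* (0.18) were nearer to 0, although a difference between *Sox9* and the list was not tested.

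Summed markers of several other tissues also differed in range between the groups. The summed level of the mesenchyme list was 2795 to 2838 CPM in the controls and 1678 to 1831 CPM in mutant libraries. Its most abundant genes, *Nr2f1*, *Nr2f2* and *Tfap2b*, had mutant over control ratios of mean CPM of 0.643, 0.779 and 0.731. For *Prrx1*, *Prrx2* and *Alx1* the ratios were 0.436, 0.361 and 0.450. *Nr2f2* and *Tfap2b* were named after their values were seen. The 14 epithelial markers summed to 270 to 291 CPM in the controls and 408 to 450 CPM in mutant libraries, with 12 of 14 fitted fold changes above 0, beside 54.2% of all genes, and 2 genes called (*Cdh1*, 77.2 and 59.5 CPM against 121 and 114 CPM, and *Epcam*, 59.3 and 70.6 CPM against 110 and 103 CPM). The 17 neural and olfactory placode markers summed to 2150 to 2564 CPM against 3168 to 3180 CPM, with 16 of 17 fitted fold changes above 0 and 1 gene called (*Six3*, log2 fold change 0.71). For the 18 blood and macrophage markers with a row, the sums were 121 to 140 CPM against 156 to 197 CPM, and *Cx3cr1* of macrophages was called (1.04, limma adjusted p = 0.0143). limma called 0.305% of all genes higher, and DESeq2 called none of these 4 genes. Each of the 4 calls was also lost when some single library was left out, among them *Six3* without control replicate 2 (limma adjusted p = 0.372), *Cdh1* without control replicate 2 (0.0924), *Epcam* without mutant replicate 1 (0.202) and *Cx3cr1* without mutant replicate 2 (0.266). Every gene listed had at least 3 reads over the libraries together, so no gene with a row could be at 0 in every library.

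For endothelial and glial markers the summed levels overlapped between the groups. Endothelial markers summed to 225 to 246 CPM in the controls and 225 to 243 CPM in mutant libraries, and *Kdr* and *Cdh5* overlapped between the groups. Glial markers summed to 106 to 152 CPM against 115 to 160 CPM, but *Fabp7* makes up most of this sum. The groups did not overlap for 3 of the 6 glial markers tested, beside 38.8% of all genes. *Ednrb* stood at 14.3 and 15.5 CPM against 19.1 and 27.1 CPM. *Sox10* stood at 9.71 and 7.99 CPM against 2.08 and 3.28 CPM (log2 fold change −1.44, limma adjusted p = 0.0926) and *Foxd3* at 3.07 and 7.99 CPM against 1.66 and 0.468 CPM (−1.61, limma adjusted p = 0.178), both named after their values were seen. The 4 muscle markers with a row, *Tnnt1* and *Myf5* among them, summed to 8.69 to 8.88 CPM against 9.96 to 11.2 CPM. The part of these marker levels in the values of the precursor genes was not tested, and in bulk tissue fewer cells of a type and less RNA per cell cannot be told apart.

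**Figure D4:**
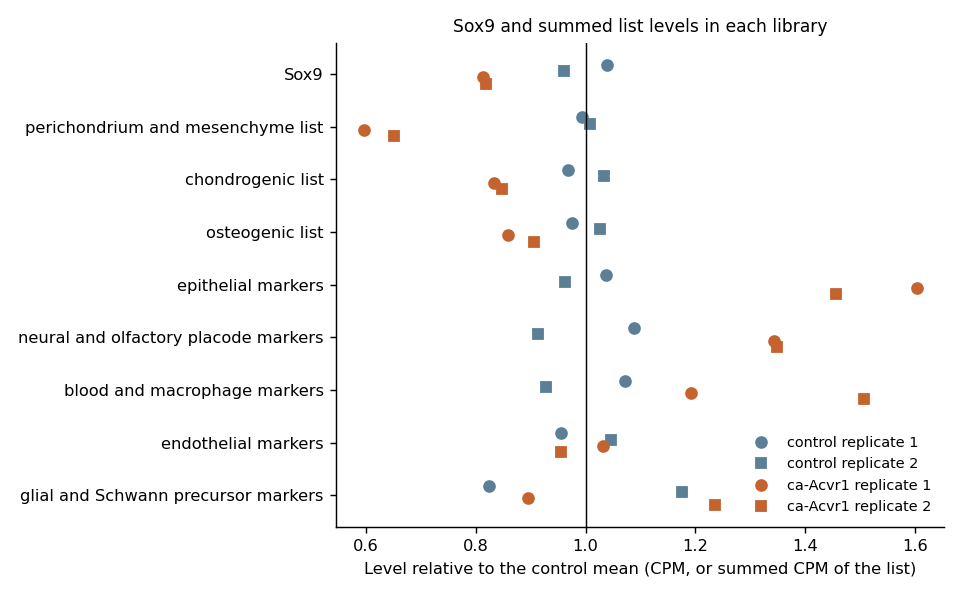
Level of Sox9 and summed CPM of each list in every library, divided by the mean of the control libraries (linear axis). Circles and squares are replicates 1 and 2, blue is control and orange is ca-Acvr1(A11). Sox9 sits below the control mean in both ca-Acvr1(A11) libraries by less than the mesenchyme list does, and epithelial, neural and blood markers sit above it.

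How *Sox9* reads therefore depended on what it was set against. Per 100 CPM of the mesenchyme list, *Sox9* was at 24.1 and 21.9 CPM in the controls and at 31.3 and 28.9 CPM in mutant libraries, with the mutant libraries higher. Per 100 CPM of epithelial markers it was at 231 and 230 CPM in the controls and at 117 and 130 CPM in mutant libraries, with the order turned round, and per 100 CPM of neural markers at 26.2 and 28.9 CPM against 16.6 and 16.7 CPM. The mesenchyme sum is weighted toward its most abundant genes, *Nr2f1*, *Nr2f2* and *Tfap2b*. These ratios are descriptions of 4 libraries, and no test was made of them.

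Readouts of BMP signaling, which lies upstream of both programs, were not called either. Of 13 such genes 12 were tested, limma, edgeR, DESeq2 and limma-voom each called 0, and at an unadjusted p under 0.05 in limma there were 3 higher (*Id4*, *Nog* and *Hey1*) and 5 lower (*Id1*, *Id2*, *Id3*, *Smad6* and *Smad7*), beside 5.42% and 4.12% of all genes. *Id2*, a direct target of SMADs, was at 406 and 714 CPM in the controls and 323 and 407 CPM in mutant libraries (log2 fold change −0.57, limma adjusted p = 0.187). *Smad7*, an inhibitor induced by the pathway, was at 41.9 and 55.9 CPM against 32.0 and 34.2 CPM (−0.54, limma adjusted p = 0.335). Without control replicate 1, the low control library for *Id2*, its log2 fold change was −0.98. It was −0.73 without mutant replicate 2 and −0.16 without control replicate 2. *Id4* was higher in both mutant libraries, at 147 and 182 CPM against 238 and 215 CPM (0.46, limma adjusted p = 0.192). Calls among the readouts changed when single libraries were left out. The summed level of the list overlapped between the groups, at 1218 to 1817 CPM and 1219 to 1273 CPM.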

How the data were processed

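RNA was extracted with Trizol from E11.5 NP tissues, and libraries were made with the QuantSeq 3′ kit. The authors deposited CPM values (reads of a gene scaled to the library total) for 13577 genes in 4 libraries, 2 per group. The submitters' processing notes name STAR, featureCounts 1.6.4, DESeq2 and mm10, with no role for each.

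Values were whole multiples of 1 read in 99.921% of cases (tolerance 0.02 reads), from which reads were recovered. The 43 other values, in 22 genes, touch no gene named here as a precursor or list gene. The main test was limma 3.58.1 (R 4.3.3) with a mean-variance trend on log2(CPM + 1), for 12462 genes with a mean above 1 CPM, and fold changes on this scale understate those of low genes. edgeR 4.0.16 and DESeq2 1.42.0 on recovered reads, limma-voom, pseudocounts of 0.1 and 0.5, other filters and scalings, a replicate block and omission of each library were alternatives. The limma, edgeR, limma-voom and DESeq2 tests of the groups were first run on simulated counts. The intervals, the replicate block, the omissions, the summed levels and the ratios were not.

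The 10 genes and the lists were chosen with earlier results of these data known. Named were all 10, *Acvr1*, the called genes and the 3 of smallest p in each related list, 8 markers of cartilage and bone fixed by name, and the 2 most abundant genes of each cell type list, except for 1 result that is not reported here. Positions are from GENCODE M21 on GRCm38. No column was left unused.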

Additional observations from a re-analysis of the deposited data

How the results depend on the processing

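No precursor gene was called under any alternative. Of 43 genes followed, 34 kept their direction in every setting that gave them a value. Where the groups do not overlap, omitting a library or changing the pseudocount cannot turn a direction. *Matn4* turned to −0.18 and −0.051 with pseudocounts of 0.1 and 0.5, and to −0.017, −0.016 and −0.021 with TMM, RLE and upper quartile scaling. With 1 library left out, log2 fold changes spanned −0.62 to 0.62 for *Matn4*, −0.043 to 0.41 for *Sox6*, −0.12 to 0.48 for *Runx1*, −0.21 to 0.68 for *Alpl*, −0.77 to 0.11 for *Acvr1*, −0.16 to 0.54 for *Fabp7*, −0.20 to 0.030 for *Kdr*, −0.063 to 0.54 for *Tal1* and −0.030 to 0.52 for *Tnnt1*. The cause was not tested.

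Calls in the cartilage list (3 lower) numbered 1 with DESeq2, with either pseudocount, with at least 10 reads in every library and with the nearest whole-read values, and 1 to 5 with a library left out. In the bone list, 5 lower became 2 with DESeq2 and 2 to 6 with a library left out, and 0 higher became 0 to 1 (*Sparc*, without control replicate 1). In the mesenchyme list, 7 lower became 6 to 12. Over all genes, 38 higher and 74 lower became 8 and 31 with DESeq2 and 241 and 221 without control replicate 1.

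Same-numbered libraries shared little beyond the number (correlation of deviations 0.067, and 0.148 for genes above 20 CPM). A replicate block gave 97 higher and 132 lower calls over all genes, 0 of the precursor genes and 4 lower cartilage genes, and it added calls for *Id2* (BMP readouts), *Foxd1* and *Foxf1* (mesenchyme), *Pax6* and *Sox2* (neural) and *Sox10* and *Foxd3* (glial). Of the precursor genes, *Runx2* and *Matn4* rest on 1 to 9 reads per library.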
